A study of Mus musculus with 3 samples.

Results

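Matrix metalloproteinases (MMPs) and their tissue inhibitors (TIMPs) were examined as a set of 9 genes, Mmp2, Mmp3, Mmp9, Mmp13, Mmp14, Mmp19, Timp1, Timp2 and Timp3, chosen by name from the 24421 genes in the deposited counts. All 9 were present, and all 9 passed the minimum mean of 10 reads over the 3 libraries that left 16670 genes for comparison. The RNA came from EL16.7, a female mouse embryonic stem (ES) cell line of the strain background F2:129S1/CastEiJx 129S1, labelled as undifferentiated and grown with LIF on γ-irradiated mouse embryonic fibroblasts of Tg(DR4)1Jae/J mice. All groups had been transduced with a lentivirus in Polybrene and selected with puromycin at 2 μg/ml for 2 days. The groups were control (scramble shRNA), KD-1 (NUP153 shRNA-1) and KD-2 (NUP153 shRNA-2), with 1 library each, and no label or method in the sources used here says whether the fibroblasts were removed before RNA was isolated.

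MMPs are zinc-dependent endopeptidases that cut collagens and other matrix proteins, and most are secreted as inactive precursors that need removal of a propeptide. TIMPs bind the catalytic site of MMPs and block it, so that the balance of both sets matrix turnover. At the cell surface, MMP14 and TIMP2 together also take part in the activation of the MMP2 precursor. Fibroblasts are known as a source of many of these proteins.

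Reads on genes numbered 69839336 to 85258834 per library, and Nup153, the targeted gene, had 27870 reads in control, 16451 with KD-1 and 11126 with KD-2, a log2 fold of -0.99 with KD-1 and -1.43 with KD-2. Folds are ratios of reads after upper-quartile scaling, each with an exact Clopper-Pearson 95% interval that covers the counting of reads only. A gene was called at a fold above 1.5 with an interval that left out no change, without adjustment for the number of genes. With 1 library per condition no difference has a replicate check, no p-value is given for single library pairs, and each call compares those libraries, not the conditions. Among the 16670 genes, 1087 were called higher and 765 lower in KD-1, and 861 and 940 when scaled with DESeq2's size factors. In KD-2, 2482 were called higher and 1433 lower, and 3552 and 633 after scaling by the reads on all genes. In KD-1 against KD-2, 2012 were higher and 2512 lower, 1278 and 2966 with DESeq2's size factors, and 981 and 3302 after scaling by the reads on all genes.

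In the control library, Mmp3 and Timp1 stood far above the other genes of the set. Levels are given as RPKM, reads scaled to exon length and to the reads on genes of the library, which is the scale used here for comparing genes with each other. Mmp3, the matrix protease stromelysin, was at 303 RPKM (counting interval 300.2 to 306), and 99.1% of the 23334 genes with a known exon length lay below it. Timp1, a secreted inhibitor, was at 230.0 RPKM, and these 2 genes held 48.9% and 37.1% of the summed RPKM of the 9. Timp2 followed at 28.4 RPKM, Mmp2 at 21.5, Timp3 at 14.5 and Mmp13 at 9.64. Mmp19 at 6.48 RPKM and Mmp14 at 6.19 were the only neighbours in this order whose counting intervals overlapped. Mmp9, a gelatinase, was close to absent, with 13 reads and 0.0566 RPKM.

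The order was similar in the knockdown libraries for the genes at both ends. Mmp3 was at 329 RPKM with KD-1 and 391 with KD-2, and Timp1 at 124 and 267. In KD-1, Mmp13 at 16.9 RPKM stood above Mmp2 at 13.1, whereas in control and KD-2 Mmp2 stood above Mmp13. The intervals of Timp3 at 5.94 RPKM and Mmp19 at 5.57 overlapped in KD-1, and those of Mmp19 at 12.9 and Mmp14 at 12.1 in KD-2. Summed over the 6 MMPs the level was 347 RPKM in control, 369 with KD-1 and 476 with KD-2. Summed over the 3 TIMPs it was 273 RPKM in control, 157 with KD-1 and 344 with KD-2, and the sum of the 16 fibroblast markers described further on was in the same order. Mmp3 held 82.1% to 89.1% of the sum of the proteases and Timp1 77.6% to 84.3% of that of the inhibitors, and the intervals of Timp2 in control and KD-1, at 28.4 and 27.8 RPKM, overlapped.

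**Figure D1:**
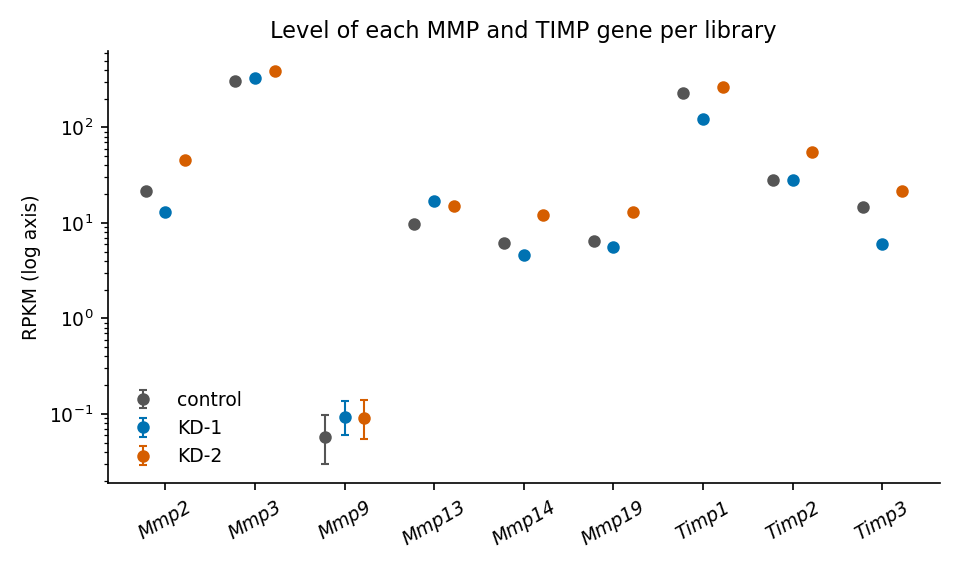
RPKM on a log axis for each of the 9 genes in the control, KD-1 and KD-2 libraries, with 1 point per library and bars for the 95% counting interval. Mmp3 and Timp1 lie above 100 RPKM in each library and Mmp9 lies below 1.

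In KD-1 compared to control, 3 of the 9 genes were called lower, 1 was called higher and 5 were not called, where 11.1% of all genes tested were called, 4.59% lower and 6.52% higher. The genes called lower were Timp3, Timp1 and Mmp2, and the gene called higher was Mmp13. The median log2 fold of the set was -0.21, and it was 0.02 over all genes tested. In KD-2 compared to control, 4 of the 9 genes were called higher, Mmp2, Mmp14, Mmp19 and Timp2, and 0 were called lower, where 23.5% of all genes tested were called, 14.9% higher and 8.60% lower. The median of the set was 0.51 in KD-2, and it was -0.02 over all genes tested. Mmp2 was called lower with KD-1 and higher with KD-2, as were 1.80% of all genes tested. None of the 9 was called higher in both knockdowns, lower in both, or higher with KD-1 and lower with KD-2, calls that 2.04%, 0.618% and 0.0840% of all genes tested had. The KD-2 library lay above both other libraries beyond the counting intervals for 7 of the 9 genes, and for 23.6% of all genes tested. Both comparisons to control share the control library, so that their values are not independent of each other. Compared directly, without the control library, 6 of the 9 genes were called lower in KD-1 than KD-2 and 0 higher, where 27.1% of all genes tested were called, 15.1% lower and 12.1% higher. The median of this comparison was -0.94 for the set and 0.12 over all genes tested. Scaling to the fibroblast markers described further on adds 1.43 to the log2 fold of each gene in this comparison and puts the median over all genes tested at 1.56. On that scale 0 of the 9 genes were called lower and 4 higher, Mmp3, Mmp9, Mmp13 and Timp2, where 0.702% of all genes tested were called lower and 88.0% higher.

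**Figure D2:**
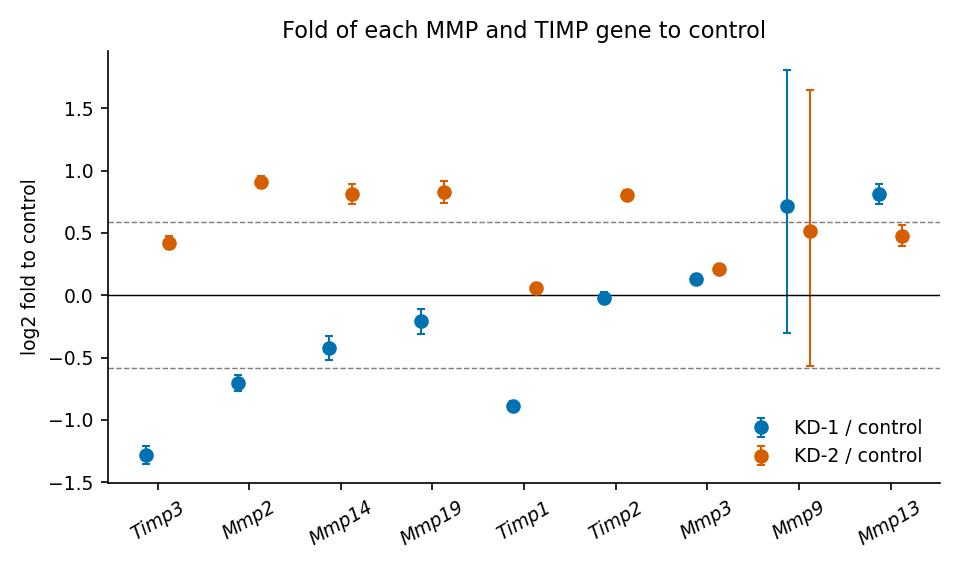
Log2 fold change to control for each of the 9 genes in KD-1 and KD-2, ordered by the difference between both, with 95% counting intervals and dashed lines at a fold of 1.5. On this upper-quartile scaling the KD-2 point lies above the KD-1 point for 7 genes, beyond counting error, and the points of Mmp9 and Mmp13 are in the opposite order, Mmp9 with overlapping intervals. Scaling to the fibroblast markers, which adds 1.43 to the difference of each gene, puts Mmp14, Mmp19, Timp1, Timp2 and Mmp3 in the opposite order too.

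Among the gelatinases, which cut denatured collagen and basement membrane collagen, Mmp2 was called in opposite directions in the 2 knockdowns. Mmp2, at bases 92827291 to 92853420 of chromosome 8 (GRCm38), had 4793 reads in control, 3448 with KD-1 and 9688 with KD-2. The KD-1 library was lowest and the KD-2 library highest, and their scaled reads, 3180 and 9721, lie on both sides of the control at 5179. The log2 fold was -0.70 in KD-1 (interval -0.77 to -0.64) and 0.91 in KD-2 (interval 0.86 to 0.96). KD-1 was lower than KD-2 by a log2 fold of -1.61 (interval -1.67 to -1.56). Mmp9, at bases 164940780 to 164955850 of chromosome 2, had 13, 25 and 20 reads in control, KD-1 and KD-2. Its intervals, -0.31 to 1.80 in KD-1 and -0.56 to 1.64 in KD-2, include no change, and a difference was not detectable at this depth.

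Mmp14 and Mmp19 were lower than control in KD-1 by less than the fold of 1.5 and were called higher in KD-2. Mmp14, a membrane-bound MMP at bases 54431612 to 54445364 of chromosome 14, had 1875 reads in control, 1636 with KD-1 and 3545 with KD-2. On the log2 scale its ratio to control was -0.43 in KD-1 (interval -0.52 to -0.33), less than the fold of 1.5, and 0.81 in KD-2 (interval 0.73 to 0.89). Mmp19, a secreted MMP at bases 128790910 to 128800824 of chromosome 10, had 1618 reads in control, 1641 with KD-1 and 3100 with KD-2. Its log2 fold was -0.21 in KD-1 (interval -0.31 to -0.11) and 0.83 in KD-2 (interval 0.74 to 0.92). Exons of Mmp19 share 789 bases with Tmem198b on the opposite strand, which had 296, 265 and 497 reads, and which strand was counted is not given in the sources used here. Within a library, Mmp14 had 0.391 reads per Mmp2 read in control, 0.474 with KD-1 and 0.366 with KD-2, a ratio that needs no scaling between libraries. The counting intervals of control and KD-2 overlap, and that of KD-1 lies above both. Mmp19 had 0.863 reads per Mmp14 read in control, 1.00 with KD-1 and 0.874 with KD-2.

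Mmp3 and Mmp13 differed from this order. Mmp13, a collagenase that cuts fibrillar collagen, lies at bases 7272514 to 7283331 of chromosome 9, and had 1865 reads in control, 3842 with KD-1 and 2795 with KD-2. It was highest in KD-1, with a log2 fold of 0.81 (interval 0.73 to 0.89), and stood at 0.48 in KD-2 (interval 0.39 to 0.56), less than the fold of 1.5. After scaling by the reads on all genes it was also called higher in KD-2, at 0.63. Mmp3, at bases 7445822 to 7455975 of chromosome 9, had 39497 reads in control, 50510 with KD-1 and 49195 with KD-2. The log2 fold of Mmp3 was 0.13 in KD-1 (interval 0.11 to 0.15) and 0.21 in KD-2 (interval 0.19 to 0.23), larger than counting error and far under the fold of 1.5. Within a library, Mmp13 had 0.389 reads per Mmp2 read in control, 1.11 with KD-1 and 0.289 with KD-2. For Mmp3 there were 8.24 reads per Mmp2 read in control, 14.6 with KD-1 and 5.08 with KD-2, so that both genes had more reads per Mmp2 read in KD-1 than in control, and fewer in KD-2.

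The 250 bases before the start of Mmp3 and Mmp13, the members whose folds stand apart from those of Mmp2, Mmp14 and Mmp19, are shown beside those of Timp1, which was lower in KD-1. They are RefSeq sequences (GRCm38.p6) on the plus strand, at chr9:7445572-7445821, chr9:7272264-7272513 and chrX:20869916-20870165, and capitals mark matches to the AP-1 motif TGAGTCA or its reverse complement TGACTCA.
Mmp3: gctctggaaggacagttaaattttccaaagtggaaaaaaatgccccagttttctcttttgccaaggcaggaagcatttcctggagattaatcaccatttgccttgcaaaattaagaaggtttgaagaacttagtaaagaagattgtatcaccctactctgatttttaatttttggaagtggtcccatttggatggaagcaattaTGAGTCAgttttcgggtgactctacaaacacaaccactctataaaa
Mmp13: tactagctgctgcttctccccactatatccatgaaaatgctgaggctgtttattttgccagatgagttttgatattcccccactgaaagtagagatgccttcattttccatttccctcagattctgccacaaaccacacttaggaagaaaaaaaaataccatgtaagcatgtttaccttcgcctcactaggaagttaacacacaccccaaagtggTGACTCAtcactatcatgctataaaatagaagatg
Timp1: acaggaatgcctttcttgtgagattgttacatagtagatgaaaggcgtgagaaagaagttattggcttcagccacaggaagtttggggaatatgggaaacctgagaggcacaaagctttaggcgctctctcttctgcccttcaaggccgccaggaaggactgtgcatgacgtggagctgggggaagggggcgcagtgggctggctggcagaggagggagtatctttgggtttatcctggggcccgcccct

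Promoters of 6 of the 9 genes matched by symbol, and Mmp2, Mmp9 and Mmp19 did not. The AP-1 motif lies 46 to 40 bases before the start of Mmp3 and 35 to 29 bases before the start of Mmp13, and these letters are not in the windows of Mmp14, Timp1, Timp2 or Timp3. Among 32851 windows of the same length, 4.46% hold the motif on either strand. Mmp3 and Mmp13 also hold the letters TATAAA on the sense strand, as do 7.59% of all windows, and their GC contents of 37.6% and 40.4% are below the median of 52.4% over all windows. The Ets-type motif AGGAAG, searched on both strands with its reverse CTTCCT, is in the windows of Mmp3, Mmp13, Mmp14, Timp1 and Timp3 and in 29.5% of all windows. The letters TGTGGT or ACCACA, bound by Runx factors, are in those of Mmp13 and Mmp14 and in 14.0% of all windows. A core motif of CTCF was found in 0 of the 6 and in 0.0335% of all windows. The motifs do not overlap the AP-1 match in Mmp3 or Mmp13. These matches describe the sequences only.

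Mmp3 and Mmp13 belong to a cluster of 10 Mmp genes on chromosome 9 between 7272514 and 7699585, and the other genes of this cluster had few reads. This grouping was chosen after the values were seen. Mmp12, the macrophage elastase, had 6 reads in control, 32 with KD-1 and 8 with KD-2, and Mmp1b, a collagenase gene, had 16, 48 and 17. Their log2 folds in KD-1 were 2.19 (interval 0.91 to 3.74) and 1.36 (interval 0.51 to 2.27), and their exons share 157 bases on opposite strands. Mmp27, under the minimum mean of 10 reads, had 3, 16 and 4 reads. In each of these 3 genes the KD-1 library was the highest, as in Mmp13. Of the 6 cluster genes that were tested, 3 were called higher and 0 lower in KD-1, and 0 were called in KD-2. Over all genes tested, 6.52% were called higher and 4.59% lower in KD-1, and 14.9% higher and 8.60% lower in KD-2, and the calls of Mmp12 and Mmp1b rest on 6 to 48 reads per library. Of the 13 Mmp genes on other chromosomes, all tested, 2 were called higher and 2 lower in KD-1, and 6 were called higher in KD-2. Mmp10 with 34 to 53 reads and Mmp1a with 25 to 38 were not called, Mmp20 and Mmp8 had at most 8 reads, Mmp7 had 0 in each library, and reads of the closely related Mmp1a and Mmp1b may have been split between them.

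**Figure D3:**
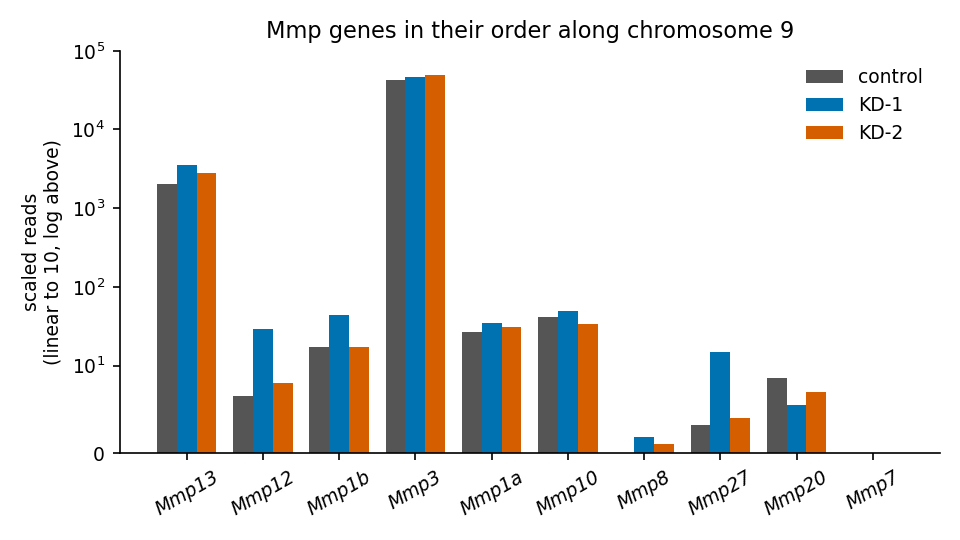
Upper-quartile scaled reads of the 10 Mmp genes on chromosome 9 in their order along the chromosome, in control, KD-1 and KD-2, with 1 bar per library on an axis that is linear up to 10 and logarithmic above. Mmp3 and Mmp13 exceed the other genes, and the KD-1 bar is the highest for Mmp13, Mmp12, Mmp1b and Mmp27, and within counting error also for Mmp1a, Mmp10 and Mmp8.

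The inhibitors differed among themselves in KD-1. Timp3, the TIMP that stays bound to the matrix, lies on chromosome 10 from 86300372 to 86349506 inside Syn3, a gene on the opposite strand with which it shares no exon bases, and had 4961 reads in control, 2393 with KD-1 and 7146 with KD-2. Its log2 fold change in KD-1 was -1.28 (interval -1.35 to -1.21), the lowest of the 9 genes, and it was 0.42 in KD-2 (interval 0.37 to 0.47), less than the fold of 1.5. KD-1 was lower than KD-2 by a log2 fold of -1.70 (interval -1.77 to -1.63). Timp1, on chromosome X from 20870166 to 20874735 inside Syn1 on the opposite strand, also without shared exon bases, had 14777 reads in control, 9363 with KD-1 and 16553 with KD-2. It was lower in KD-1, at -0.89 (interval -0.92 to -0.85), and near control in KD-2, at 0.06 (interval 0.02 to 0.09). Timp2, at bases 118301069 to 118355740 of chromosome 11, had 7612 reads in control, 8799 with KD-1 and 14327 with KD-2. It did not differ from control beyond counting error in KD-1, at -0.02 (interval -0.06 to 0.02), and was called higher in KD-2, at 0.81 (interval 0.77 to 0.85).

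Within a library, the reads of the inhibitors were apportioned differently. Timp1 had 1.94 reads per Timp2 read in control, 1.06 with KD-1 and 1.16 with KD-2, so that both knockdown libraries were below control. Timp3 had 0.652 reads per Timp2 read in control, 0.272 with KD-1 and 0.499 with KD-2. For the proteases relative to an inhibitor, Mmp3 had 2.67 reads per Timp1 read in control, 5.39 with KD-1 and 2.97 with KD-2, and Mmp2 had 0.630 reads per Timp2 read in control, 0.392 with KD-1 and 0.676 with KD-2. For each of these 4 ratios the counting intervals of the 3 libraries do not overlap.

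Markers of fibroblasts moved in the same order as most of the set. All 16 markers had reads in each library, and their summed level was 2073 RPKM in control, 1309 with KD-1 and 3480 with KD-2. Of the 16, 9 were called lower and 0 higher in KD-1, where the median log2 fold was -0.66, and 13 were called higher and 0 lower in KD-2, where the median was 0.78. In the direct comparison 16 of 16 were called lower in KD-1 than KD-2, and in KD-2 each of the 16 exceeded both other libraries beyond counting error. Over all genes tested, 4.59% were called lower in KD-1, 14.9% higher in KD-2 and 15.1% lower in KD-1 than KD-2. The KD-2 library exceeded both others beyond counting error for 23.6% of all genes tested. Among the markers, Postn had a log2 fold of -2.01 with KD-1 and 0.68 with KD-2, Lum -1.44 and 0.81, and Vim, which ES cells also express, -0.57 and 0.97. Col3a1, S100a4 and Pdgfra were at -1.33, -0.68 and -0.27 in KD-1 and at 0.96, 0.35 and 0.68 in KD-2, and Fn1 was at -0.08 and 0.53. The number of fibroblasts, the RNA per fibroblast and expression of these genes in the ES cells cannot be told apart in bulk RNA. The part of the markers in the values of the 9 genes was not tested.

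Relative to the median fold of the 16 markers, a scaling that was added after the values were seen, the 9 genes fell into a different order. Mmp2 was at -0.05 with KD-1 and 0.13 with KD-2 on the log2 scale and at -0.18 in KD-1 against KD-2, and was called in none of the 3 comparisons. Mmp14 was at 0.23 and 0.04, Mmp19 at 0.45 and 0.05, and Timp2 at 0.64 and 0.03. Mmp13 was at 1.47 and -0.30, Mmp3 at 0.78 and -0.57, and Mmp9 at 1.37 and -0.26, above the median of the markers with KD-1 and below it with KD-2. Timp3 was at -0.62 and -0.36 and Timp1 at -0.23 and -0.72, below the median of the markers in both knockdowns. In KD-1 both lay within the spread of the markers, of which Postn, Lum, Col1a2 and Col3a1 were lower than either. In KD-2 Timp1, at 0.06 against control, and Mmp3, at 0.21, lay below all 16 markers, of which S100a4 at 0.35 was the lowest. In KD-1 Timp2 at -0.02, Mmp3 at 0.13, Mmp9 at 0.71 and Mmp13 at 0.81 against control lay above all 16. The highest marker there was Fn1 at -0.08, whose interval overlaps those of Timp2 and Mmp9. With the scaling to the markers 5 genes of the set were called in KD-1, 4 of them higher, and 1 in KD-2, which was Timp1, lower. Of all genes tested, 61.0% were then called higher and 0.642% lower in KD-1, and 1.06% higher and 60.8% lower in KD-2. It moves the median of all genes tested by 0.66 with KD-1 and -0.78 with KD-2, and is given as a ratio to the markers, not as a change of the genes.

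**Figure D4:**
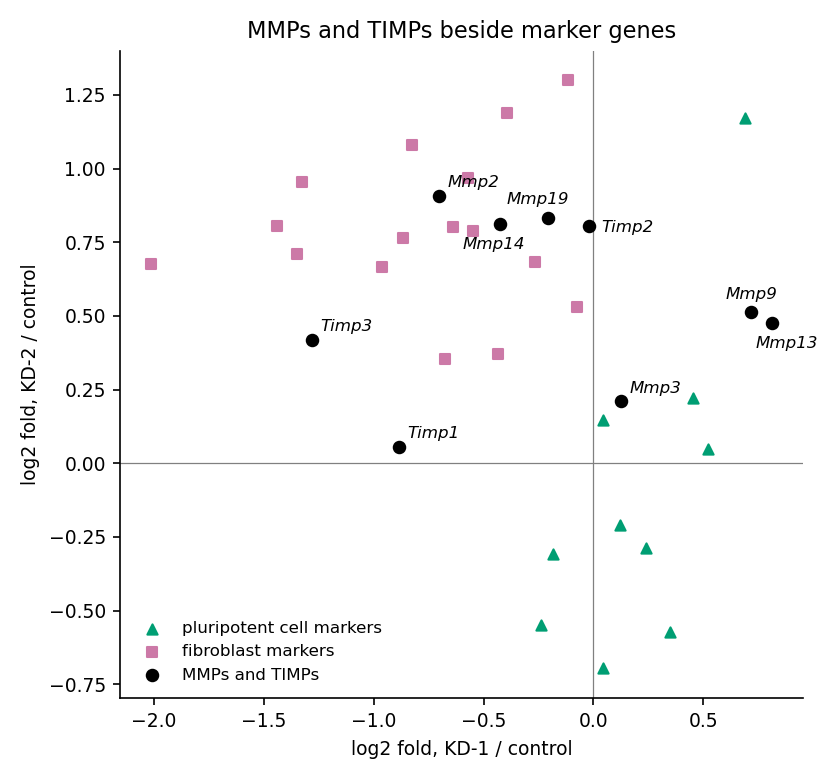
Log2 fold change to control in KD-1 against that in KD-2 for the 9 MMP and TIMP genes, 16 fibroblast markers and 10 pluripotent cell markers, after upper-quartile scaling, with 1 point per gene. Mmp2 lies among the fibroblast markers and Mmp13 to the right of them. The fibroblast markers lie below 0 in KD-1 and above 0 in KD-2.

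The pluripotent cell markers, which check the label, had a summed level of 3222 RPKM in control, 3741 with KD-1 and 2574 with KD-2 and 0 of 10 markers without reads. Dppa5a, which had most reads as a mean over the libraries and fewer than Zfp42 in control and KD-2, had log2 folds of 0.35 with KD-1 and -0.57 with KD-2. In KD-1, 1 of the 10 was called higher, Utf1 at 0.69, where 6.52% of all genes tested were called higher. In KD-2, Utf1 was called higher at 1.17 and Zfp42 lower at -0.70. Markers of parietal and primitive endoderm were lower in level, from 47.4 to 90.8 RPKM in sum with Sparc holding 73.7% to 87.4%, and 0 of 8 were called in KD-1. In KD-2, 4 of 8 were called higher, Sparc at 0.65, Dab2 at 0.64, Gata6 at 1.08 and Pth1r at 1.27. Gata6 had 46 to 105 reads per library and Pth1r 30 to 78. The list did not move as 1, as 3 of the 8 lay below control in KD-2 without being called. These were Lama1 at -0.44 (interval -0.50 to -0.39), Gata4 at -0.24 and Sox7 at -0.20. Over all genes tested, 11.1% were called in KD-1, and 14.9% were called higher in KD-2. The part of these markers in the values of the 9 genes was not tested.

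The other genes of the family and of its regulators give the context of the set. Of 17 other MMPs and Timp4, 14 of 18 genes were tested, of which 4 were called higher and 1 lower in KD-1 and 3 higher and 0 lower in KD-2. Over all genes tested, 6.52% were called higher and 4.59% lower in KD-1, and 14.9% higher and 8.60% lower in KD-2. Mmp16, a membrane-bound MMP, was at -0.44 with KD-1 and 0.74 with KD-2, Mmp23 at -0.53 and 1.22, and Mmp28 at -0.77 and 1.05. These 3 genes were called higher in KD-2, and Mmp28 was called lower in KD-1. Mmp17 and Mmp15, both membrane-bound, were called higher in KD-1, at 0.65 and 0.69, and not called in KD-2, at -0.04 and 0.35. Reads were few for Mmp15, with 57 to 108 per library, and for Mmp28, with 50 to 163, whose exons overlap those of an antisense gene.

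Among genes that activate MMPs or control them at the cell surface, 11 of 13 were tested, and 1 was called higher and 1 lower in KD-1. In KD-2, 4 were called higher and 0 lower. The shares of all genes tested were 6.52% higher and 4.59% lower in KD-1, and 14.9% higher and 8.60% lower in KD-2. A2m, a secreted protease trap, was higher in KD-1 at 0.92 and not called in KD-2 at -0.31. Cd44, a hyaluronan receptor that can hold MMPs at the surface, was lower in KD-1 at -0.89 and higher in KD-2 at 0.63. Lrp1, an uptake receptor for proteases and inhibitors, was called higher in KD-2 at 0.90, as were Furin, which cleaves MMP precursors, at 0.80 and Reck, a membrane-anchored MMP inhibitor, at 0.61. Bsg, an inducer of MMPs and the gene with most reads here, was at -0.08 with KD-1 and 0.27 with KD-2.

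In the plasminogen system, whose protease plasmin can activate MMP precursors, 5 of 7 genes were tested, of which 3 were called higher and 0 lower in KD-2. Of all genes tested, 14.9% were called higher and 8.60% lower in KD-2. Serpine2, a secreted protease inhibitor, was at 0.00 in KD-1 and called higher in KD-2 at 0.78, as were Plaur, the urokinase receptor, at 0.93 and Plat at 0.79. Of 20 ADAM and ADAMTS metalloproteinases, 18 were tested, of which 1 was called higher and 3 lower in KD-1 and 10 higher and 1 lower in KD-2. The shares of all genes tested were 6.52% higher and 4.59% lower in KD-1, and 14.9% higher and 8.60% lower in KD-2. Adamts1 and Adamts5, which cut proteoglycans, were called lower in KD-1 at -0.93 and -0.71 and higher in KD-2 at 1.17 and 0.98. Adam15, Adam8, Adamts2 and Adamts10 were called in KD-2 alone among the comparisons to control, at 0.98, 0.71, 0.84 and 1.04. Among 5 cathepsins that can degrade matrix, 4 were tested, Ctsk was called lower in KD-1 at -0.75, and Ctsl, with most reads as a mean over the libraries and fewer than Ctsd in KD-2, was at 0.23 with KD-1 and 0.13 with KD-2.

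When KD-1 and KD-2 were combined against control, the quasi-likelihood test of edgeR takes its spread from KD-1 and KD-2 alone and has 1 residual degree of freedom. It called 0 of the 9 genes, each with an adjusted p of 1, and 1 of 16670 genes (0.00600%), Mir6236, whose log2 fold was 4.07 with KD-1 and -0.22 with KD-2. At an unadjusted p under 0.05 there were 211 genes (1.27%) and 0 of the 9. The lowest unadjusted p of the set in the edgeR fit was that of Mmp13, 0.130, at a log2 fold of 0.66, with both libraries above control. Mmp2 stood at 0.32 in this fit, between its opposite folds in the single libraries. DESeq2's Wald test also called 0 of the 9 genes. The calls between single libraries depend on the spread that is assumed. In a likelihood ratio test (edgeR) with the dispersion set to 0.01 the same members were called, 4 in KD-1, 4 in KD-2 and 6 in the direct comparison, beside 870, 3236 and 3996 of the 16670 genes, and with 0.04, a coefficient of variation of 20%, 0 were called in either knockdown against control, and Mmp2 and Timp3 between the knockdowns.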

How the data were processed

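Total RNA of control and NUP153 knockdown mouse ES cells was depleted of ribosomal RNA and sequenced as single-end reads, with 1 library per condition. The authors trimmed reads with Trim Galore 0.4.1, mapped them with TopHat 2.1.1 to mm10 (GRCm38), kept those of high mapping quality and deposited unnormalized counts of reads for each gene. The paper names featureCounts as counting tool and the submitters' processing notes name HTSeq. The 5 summary lines, 23.0% to 25.6% of the counts per library, were left out. Such counts may miss reads shared by overlapping or near-identical genes.

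Libraries were scaled by upper-quartile normalization (edgeR 4.0.16, R 4.3.3). Genes averaging 10 reads or more were compared by the ratio of scaled reads with exact Clopper-Pearson 95% intervals (scipy 1.17.1), which cover counting error only. Genes at 0 reads in a library were set to a floor of 3 reads. For KD-1 and KD-2 combined, the quasi-likelihood test of edgeR with Benjamini-Hochberg adjustment was used against control. The dispersion used in the study came from spike-in reads not used here, so its likelihood ratio test was run only at assumed dispersions of 0.01, 0.04 and 0.16. Other alternatives were TMM, DESeq2 1.42.0 size factors and Wald test, library totals, other minimum means (1, 100 or none), a fold above 2, the fold alone, pseudocounts of 0.5 and 5 reads, and, added after seeing the data, scaling by fibroblast markers. Exon lengths and positions came from GENCODE M21, matched by symbol for 23334 genes and all members. The counting interval was tried on simulated Poisson counts, and the tests of both knockdowns on counts simulated at a dispersion of 0.04. In these simulations the true fold was the same in KD-1 and KD-2, so that knockdowns that differ were not covered. The genes and the 8 gene lists were chosen with earlier results of these data known. Genes named from the lists were those called against control, up to 6 per list by mean reads, and the gene with most reads. Any further gene was singled out with its values in view. The result of 1 gene of the lists is not reported here.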

Additional observations from a re-analysis of the deposited data

Results flagged for a closer look

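Mmp2 was called in opposite directions against control in the 2 knockdown libraries, and the log2 fold between KD-1 and KD-2 was -1.61. Fibroblast markers moved in the same order. Relative to their median fold, Mmp2 was at -0.05 in KD-1, 0.13 in KD-2 and -0.18 between the knockdowns, with none of these called. That scaling was added after the values were seen, and puts any gene with folds like those of the markers near 0. On that scale 61.0% of all genes tested were called higher in KD-1, 60.8% lower in KD-2 and 88.0% higher in KD-1 against KD-2. Each direction of Mmp2 rests on 1 library, and the difference between both knockdowns was not tested against a spread between replicates. No other gene of the set was called in opposite directions.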

How the results depend on the processing

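No paired analysis was possible because each condition has 1 library. The direction of each of the 9 genes in each of the 3 library comparisons was the same under TMM, DESeq2's size factors, library totals and both pseudocounts. Scaling by library totals moved the median of all genes tested by 0.16 in KD-2 and -0.17 in KD-1 against KD-2, and DESeq2's size factors moved the latter by -0.10. Scaling by the fibroblast markers adds 1.43 to each log2 fold of KD-1 against KD-2, which puts the median of all genes tested at 1.56, and by this shift reversed 4 called values of KD-1 against KD-2, Mmp14 to 0.20, Mmp19 to 0.39, Timp1 to 0.49 and Timp2 to 0.61, and ended the 4 calls in KD-2, where 1 other gene, Timp1, was then called, lower. Of all genes tested it called 10282 in KD-1, 10312 in KD-2 and 14794 in KD-1 against KD-2. With a fold above 2, 1 of the 9 genes was called in KD-1, Timp3, 0 in KD-2, and 4 in KD-1 against KD-2, all lower. Of all genes, this threshold called 695 in KD-1, 1114 in KD-2 and 1785 in KD-1 against KD-2. At a dispersion of 0.01, 870 genes were called in KD-1. At 0.04, 0 of the 9 were called in KD-1, 0 in KD-2 and 2 in KD-1 against KD-2, with 79, 66 and 689 of all genes, and at 0.16, 0 of the 9 in each and 1, 0 and 0 of all genes. With a minimum mean of 100 reads, 1034 genes were called in KD-1. For both knockdowns as a group, DESeq2's size factors gave 0 genes, the Wald test 2 (Ipw and Taf7l) and no filter 2 (Lars2 and Mir6236), with 0 of the 9 in each. Without the KD-1 or the KD-2 library this comparison has no test, and its values are those of the other library. The cause of these shifts was not tested. Depth limits Mmp9 and the low genes of the chromosome 9 cluster.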

Other observations

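For each of the 8 genes of the set with a mean of at least 100 reads, the gene with the most similar pair of log2 fold changes to control was looked up among 12735 other genes. The measure was the distance in the plane of both fold changes, over 3 libraries that share 1 control. The nearest gene was Col9a3 for Mmp2 (distance 0.0022), Cmtm7 for Mmp3 (0.0053), Arhgap24 for Mmp14 (0.0043) and Nfkbiz for Timp2 (0.0068). It was Adgre5 for Mmp13 (0.020), Antxr2 for Mmp19 (0.014), Mtmr6 for Timp1 (0.026) and Myom1 for Timp3 (0.076), so that Timp3 had the most distant nearest gene of the 8. Each distance is smaller than the width of the counting intervals of that member's folds to control. Which gene is nearest is therefore not settled by these counts.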
